A study of Mus musculus with 8 samples.

Results

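The oxidative phosphorylation genes described here encode the protein subunits of respiratory complexes I to IV and of the ATP synthase, complex V. They were chosen by symbol alone: Nduf genes of the a, b, c, s and v series, Sdha, Sdhb, Sdhc and Sdhd, genes beginning with Uqcr or Atp5, cytochrome c oxidase subunit genes from Cox4 to Cox8, and mitochondrial DNA (mtDNA) genes beginning with mt-Nd, mt-Co, mt-Cytb or mt-Atp. After 11 processed pseudogenes were left out, 91 of the 26930 genes in the count table remained, 82 of them nuclear and 9 encoded in mtDNA. The nuclear members comprised 36 genes of complex I, 4 of complex II, 8 of complex III, 17 of complex IV and 16 of complex V. The complex I genes include Ndufb1-ps, which is annotated as a non-coding RNA (bidirectional promoter lncRNA) and not as a pseudogene. Ndufa4 and Ndufa4l2 were counted in complex IV, to which their proteins belong, and Atp5s matched by symbol but was placed in no complex. The mtDNA members were mt-Nd1 to mt-Nd6 (complex I), mt-Cytb (complex III), and mt-Co1 and mt-Co2 (complex IV).

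The RNA came from mouse MDSCs (myeloid-derived suppressor cells) grown in culture, a kind of immature myeloid cell known for holding back T cell responses; the labels call these cells senescent-like. The Romidepsin group (n = 4 libraries) received this histone deacetylase inhibitor at 0.5 µM for 6 h, and the untreated group (n = 4) did not; the labels name no vehicle. Both groups came from C57BL/6 bone marrow cultured with GM-CSF and IL-6, each at 40 ng/ml, and moved on day 4 into TRAMP-C1 conditioned medium (TRAMP-C1 is a prostate tumour line of the mouse). Since no separate cultures or animals are named, the p-values cover the spread among these libraries alone, which may be technical. In bulk RNA, fewer cells making a transcript and less of it per cell cannot be told apart.

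Complexes I to IV pass electrons from NADH and succinate to oxygen while complexes I, III and IV pump protons across the inner mitochondrial membrane, and complex V uses the resulting gradient to make ATP. Complexes I, III, IV and V are built from subunits of both genomes, whereas complex II is wholly nuclear. The nuclear genes are transcribed one by one by RNA polymerase II under factors such as NRF1, the ETS factor GABP and YY1. The mtDNA genes are transcribed by a separate polymerase as long precursors that are cut into single RNAs and polyadenylated.

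Total counts ranged from 12996892 to 23176949 per library, with untreated replicate 4 the deepest. All 10 MDSC markers listed, among them Itgam, Ly6g and S100a8, were detected and tested and none was called. Their summed level was nevertheless 13680 to 31990 CPM (counts scaled to library size) in Romidepsin libraries and 38290 to 45350 CPM in untreated libraries, with no overlap. B cell markers summed to 29.9 to 718 CPM in Romidepsin libraries and 312 to 1253 CPM in untreated libraries, 4 of the 7 being called lower, and erythroid markers stayed under 1 CPM in every library. Of the T and NK cell, mast cell and megakaryocyte markers tested, 1 of 3, 1 of 5 and 1 of 4 were lower, and no dendritic cell or fibroblast marker was called. The part of these shifts in the results was not tested. Romidepsin replicate 3 stood between the groups: its mean correlation was 0.921 with the other Romidepsin libraries and 0.949 with the untreated ones. Values below are CPM after TMM scaling (trimmed mean of M-values), fold changes are log2 of Romidepsin over untreated with their standard error (SE), and a gene is called where the adjusted p of edgeR's quasi-likelihood test over all 12852 tested genes is below 0.05.

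Most oxidative phosphorylation transcripts differed little between Romidepsin and untreated cells. Of the 86 members with enough counts to test (79 nuclear and 7 in mtDNA), 5 were called higher and 5 lower, 11.6% in all, against 36.5% of all tested genes (20.3% higher and 16.2% lower). At an unadjusted p below 0.05, 15 members passed. The higher genes were Ndufb6, Ndufv1 and Ndufa12 of complex I, Cox6b2 of complex IV, and Atp5s. The lower genes were Ndufs8, Ndufs3 and Ndufb8 of complex I, Uqcrc2 of complex III and Atp5g2 of complex V. The median size of the log2 fold change, whichever its direction, was 0.24 over the members and 0.61 over all tested genes, while the median SE was 0.25 and 0.27. In 84 of 86 members the change was under 2-fold. Cox6b2 and Ndufs8 were the exceptions. The 2 groups did not overlap in 7 members (8.14%), against 35.2% of all tested genes.

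**Figure D1:**
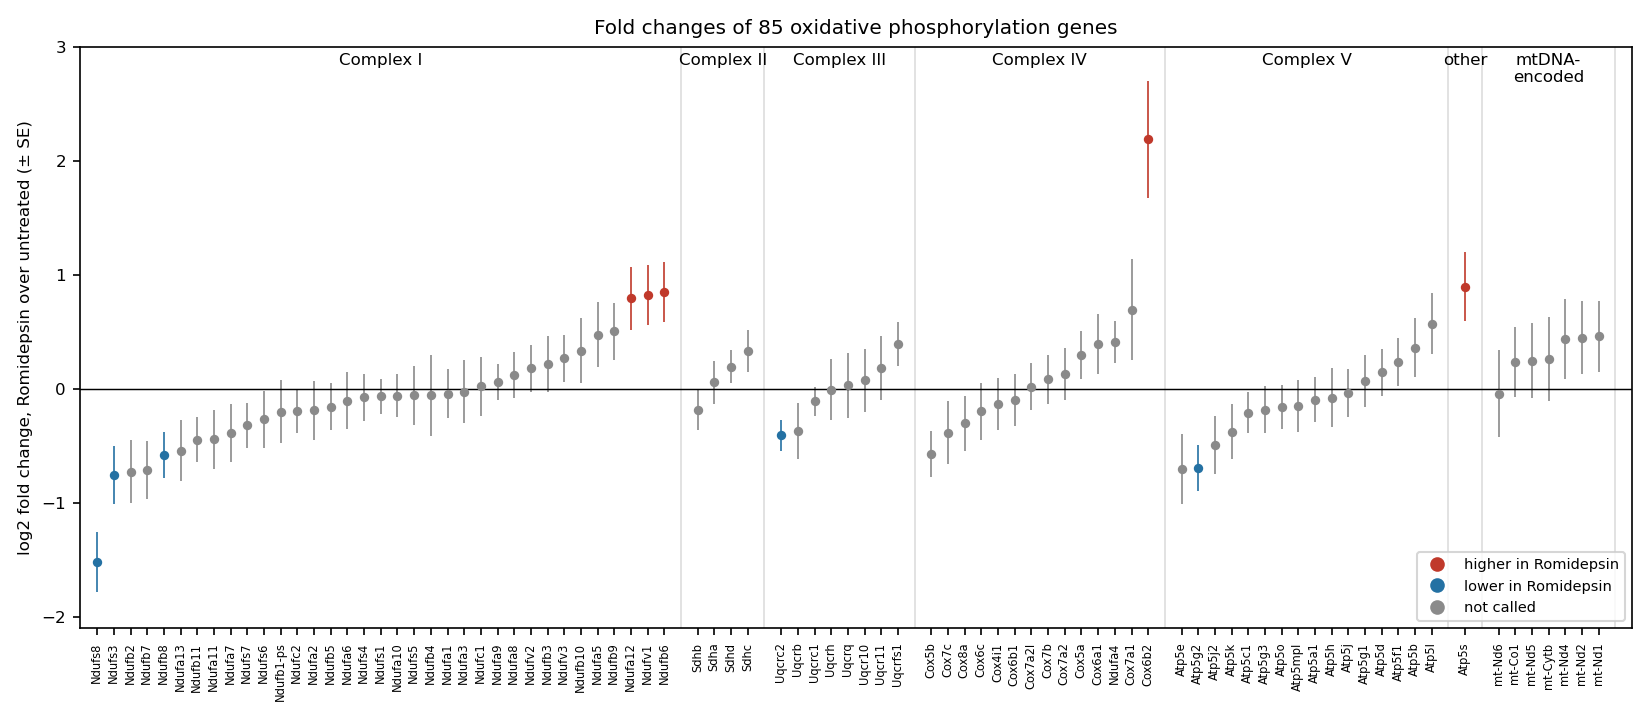
Log2 fold change (Romidepsin over untreated, ± SE) of 85 of the 86 tested members, ordered by value within each complex, with nuclear genes by complex, Atp5s as other and mtDNA genes at the right. Red and blue points are the 5 genes called higher and the 5 called lower; most grey points lie within 0.5 of 0, with Ndufs8 and Cox6b2 farthest out.

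The low number of calls held under most settings, but which genes were called did not. With the libraries paired by number (replicate block), 5 members were higher and 3 lower, against 41.9% of all genes called, and Ndufb8 (adjusted p = 0.0592) and Uqcrc2 (adjusted p = 0.0849) lost their calls. Without Romidepsin replicate 3, 5 were higher and 7 lower, against 24.8% and 23.4% of all genes (48.2% in all). Without untreated replicate 4, 1 was higher and 16 were lower, or 1.27% and 20.25% of the tested nuclear members. Of all genes, 19.5% were higher and 13.6% lower in that fit (33.1% in all). The members' share called lower was thus above that of all genes there. The additional genes included Ndufb7, Ndufa7, Ndufa13, Cox5b, Atp5e and Atp5k. Without any 1 of Romidepsin replicates 1, 2 and 4 or untreated replicates 1, 2 and 3, 1 or 2 were higher and 1 or 2 lower. Of all genes, 23.3%, 24.2% and 23.9% were called in those fits without Romidepsin replicates 1, 2 and 4, and 31.6%, 26.5% and 23.2% without untreated replicates 1, 2 and 3. Ndufs8 and Cox6b2 kept their calls in all 8 fits that left out 1 library.

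The direction of the nuclear members as a group rested on the scaling of the libraries and on single libraries. Scaling to 20 housekeeping genes moved the median of all tested genes to 0.77 on the log2 scale and the nuclear median to 0.74, and 54 nuclear members were then called higher and 1 lower, against 49.1% and 4.68% of all genes (53.8% in all). With library size alone the medians were 0.31 for all genes and 0.23 for the nuclear members, with 11 members higher and 1 lower, against 30.2% and 10.6% of all genes (40.9% in all). Relative to the median of all genes, the nuclear median was −0.07 with TMM, −0.07 with library size and −0.03 with housekeeping scaling. On the same measure it was −0.23 without untreated replicate 4 and −0.14 without Romidepsin replicate 1, but 0.02 without untreated replicate 2 and 0.01 without Romidepsin replicate 2. Leaving out 1 library at a time gave medians of −0.28 to −0.02 for complex I, 0.07 to 0.15 for complex II, −0.19 to 0.12 for complex III, −0.11 to 0.13 for complex IV and −0.30 to −0.05 for complex V, so the sign turned in complexes III and IV. Of the lower members, Ndufb8 (0.20), Uqcrc2 (0.37) and Atp5g2 (0.08) had fold changes above 0 with housekeeping scaling and Ndufs3 was at −0.006 (adjusted p = 0.984), while Ndufs8 stayed at −0.79.

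Complex I, which oxidises NADH and reduces ubiquinone, held 6 of the 10 called members and 36 of the 79 tested nuclear members. Of these 36 genes, 16.7% were called, against 36.5% of all tested genes. The nuclear genes of complex I had a median log2 fold change of −0.07, against 0.01 for all tested genes, with 3 higher and 3 lower. Among its 7 nuclear core genes, which carry the redox centres or line the path to quinone, 1 was higher (Ndufv1) and 2 were lower (Ndufs8 and Ndufs3). The 29 accessory genes held 2 higher (Ndufb6 and Ndufa12) and 1 lower (Ndufb8). The called share was 42.9% of the core genes and 10.3% of the accessory genes.

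Ndufs8 encodes the core subunit whose iron-sulfur clusters pass electrons towards the quinone site. It had 14.2, 13.3, 26.8 and 20.2 CPM in Romidepsin replicates 1 to 4, against 56.2, 66.1, 52.0 and 39.6 CPM in untreated replicates 1 to 4. The groups did not overlap, the highest Romidepsin library being replicate 3 and the lowest untreated library replicate 4. The log2 fold change was −1.52 ± 0.26 (adjusted p = 0.00377), and it stayed between −1.78 and −0.79, with a call, in each of 19 alternative fits. No 75-base stretch of its exons occurs in another annotated gene, and no annotated exon overlaps them.

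Ndufv1 encodes the core subunit that binds NADH and the flavin where electrons enter. Romidepsin replicates 1 to 4 held 162, 149, 67.1 and 101.4 CPM, and untreated replicates held 74.7, 69.5, 68.7 and 58.1 CPM. Replicates 1, 2 and 4 of the Romidepsin group lay above every untreated library, whereas replicate 3 lay among them. The log2 fold change was 0.83 ± 0.26 (adjusted p = 0.0371), and 0.99 without Romidepsin replicate 3 (adjusted p = 0.00347). The call was lost in each of the 7 other fits that left out 1 library, with adjusted p up to 0.0994.

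Ndufs8 and Ndufv1 lie on the same strand of chromosome 19, at 3908863 to 3912774 and 4007384 to 4012806 on GRCm38, 94.6 kb apart. Their promoters are shown because these genes encode linked electron carriers of one complex and were called in opposite directions. Each is the RefSeq window (GRCm38.p6) of 250 bases before to 50 after a transcript start, minus strand, written 5′ to 3′ with any match to the ETS core CCGGAAG, on either strand, in capitals. The Ndufs8 window is chr19:3912725-3913024 and the Ndufv1 window is chr19:4012706-4013005.
Ndufs8: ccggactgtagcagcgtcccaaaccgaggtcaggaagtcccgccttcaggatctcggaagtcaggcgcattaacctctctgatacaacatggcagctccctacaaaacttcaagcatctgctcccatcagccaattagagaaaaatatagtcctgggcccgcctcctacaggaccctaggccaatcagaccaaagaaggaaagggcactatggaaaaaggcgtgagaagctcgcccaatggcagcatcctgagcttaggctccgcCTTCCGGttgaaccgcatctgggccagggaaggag
Ndufv1: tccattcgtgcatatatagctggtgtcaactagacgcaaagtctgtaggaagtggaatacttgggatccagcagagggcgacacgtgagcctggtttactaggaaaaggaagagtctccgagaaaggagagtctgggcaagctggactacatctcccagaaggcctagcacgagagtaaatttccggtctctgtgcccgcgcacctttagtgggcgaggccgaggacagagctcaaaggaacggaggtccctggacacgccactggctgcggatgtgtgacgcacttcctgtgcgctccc
The Ndufs8 window held 1 ETS match, just after the start, and the Ndufv1 window held no match to the NRF1, ETS or YY1 letters searched.

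Ndufs3, another core subunit of the quinone-reducing module, had 13.2, 11.4, 21.3 and 11.6 CPM in Romidepsin libraries, against 25.3, 28.1, 26.4 and 17.3 CPM in untreated libraries. It was lower in every same-number pair, although Romidepsin replicate 3 lay above untreated replicate 4. The log2 fold change was −0.76 ± 0.26 (adjusted p = 0.0449), and the call was lost without any 1 of Romidepsin replicates 1, 2 and 4 or untreated replicates 1, 2 and 3 (adjusted p up to 0.115). Its exons overlap Kbtbd4 on the opposite strand, and 11.7% of their 75-base windows occur in another gene, so its counts are less certain than those of Ndufs8. The accessory gene Ndufb8 had 45.1, 38.1, 55.5 and 47.6 CPM in Romidepsin libraries and 81.9, 71.3, 78.1 and 47.2 CPM in untreated libraries, with a log2 fold change of −0.58 ± 0.20 (adjusted p = 0.0495). Untreated replicate 4 lay within the Romidepsin range. Ndufb8 shares exon sequence with the annotated gene Gm20538 on its own strand, and its call was lost in the same 6 of 8 fits as that of Ndufs3, with adjusted p up to 0.125.

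The accessory subunit gene Ndufb6 was higher after Romidepsin, at 87.3, 77.2, 41.4 and 58.8 CPM, against 46.4, 41.3, 33.6 and 25.7 CPM in untreated libraries. It was higher in all 4 pairs, with Romidepsin replicate 3 within the untreated range. Its fold change was 0.85 ± 0.27 on the log2 scale (adjusted p = 0.0343). It overlaps Smim27 on the opposite strand, and the call was lost in 6 of 8 fits without 1 library, those without Romidepsin replicate 3 or untreated replicate 1 keeping it (adjusted p up to 0.0938 in the others). Ndufa12 had 54.8, 39.6, 30.6 and 33.7 CPM in Romidepsin libraries and 28.1, 26.8, 23.7 and 13.1 CPM in untreated libraries, with no overlap and a log2 fold change of 0.79 ± 0.28 (adjusted p = 0.0488). Of its 75-base windows, 14.6% occur in another gene, so its counts are also less certain. Only without Romidepsin replicate 3 was its call kept among the fits that left out 1 library, and adjusted p reached 0.135 in the others.

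The largest complex I subunit gene, Ndufs1, averaged 59.4 ± 5.07 CPM in Romidepsin cells and 62.2 ± 9.09 CPM in untreated cells (SD, n = 4 each), a log2 fold change of −0.07 ± 0.15 that was not called. Per kb of exon, Ndufa2 was the most abundant nuclear complex I transcript, at 146 CPM per kb in Romidepsin cells and 166 CPM per kb in untreated cells, and it was not called (log2 fold change −0.19 ± 0.26). The 30 uncalled nuclear genes of complex I ran from −0.73 (Ndufb2) to 0.50 (Ndufb9) on the log2 scale.

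**Figure D2:**
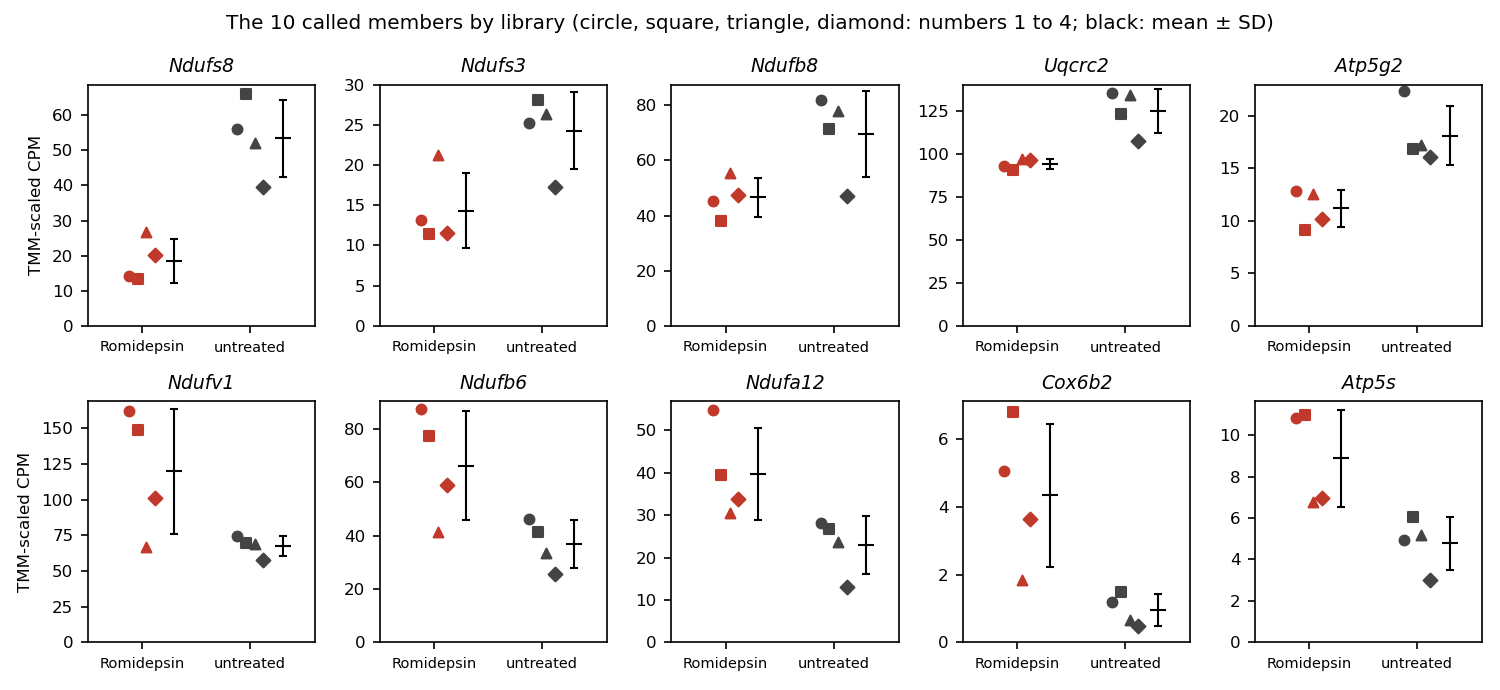
TMM-scaled CPM of the 10 called members in each library, Romidepsin left and untreated right, with a symbol for each replicate number and the mean ± SD in black (n = 4 per group; each axis starts at 0). The 5 genes called lower are in the upper panels, where Ndufs8 separates the groups most clearly. Romidepsin replicate 3 (triangle) is often the Romidepsin library nearest the untreated group. Untreated replicate 4 (diamond) is the untreated library nearest the Romidepsin group in the genes called lower and farthest from it in those called higher.

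Complex II, succinate dehydrogenase, showed no call among its 4 genes, with a median log2 fold change of 0.13. Sdha, the flavoprotein that binds succinate, had 258, 291, 250 and 251 CPM in Romidepsin libraries and 202, 223, 274 and 310 CPM in untreated libraries (log2 fold change 0.06 ± 0.19, adjusted p = 0.830). Sdhb, the iron-sulfur subunit, averaged 110 ± 16.1 CPM in Romidepsin cells and 125 ± 19.8 CPM in untreated cells (log2 fold change −0.18 ± 0.17). The groups overlapped in both genes. The membrane anchors Sdhc and Sdhd had log2 fold changes of 0.33 ± 0.18 and 0.19 ± 0.14. Sdhd, the most abundant of the 4 per kb of exon, stood at 127 CPM per kb in Romidepsin cells and 111 CPM per kb in untreated cells and was higher in all 4 pairs, without a call (adjusted p = 0.300).

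Complex III, which passes electrons from ubiquinol to cytochrome c, had 1 lower gene among its 8 nuclear members and a median log2 fold change of 0.01. Uqcrc2, a core protein of the matrix arm, had 92.7, 90.4, 96.6 and 96.4 CPM in Romidepsin libraries and 135, 123, 134 and 107 CPM in untreated libraries. The groups did not overlap, and the Romidepsin libraries varied little. The log2 fold change was −0.41 ± 0.14 (adjusted p = 0.0429). Uqcrc2 overlaps Pdzd9 on the opposite strand. Beside the loss under the replicate block, its call was lost without any 1 of Romidepsin replicates 1, 2 and 4 or untreated replicates 1, 2 and 3 (adjusted p up to 0.110). Its partner Uqcrc1 averaged 77.1 ± 4.50 CPM in Romidepsin cells and 83.3 ± 6.41 CPM in untreated cells and was not called (log2 fold change −0.11 ± 0.13). Uqcrfs1, the Rieske iron-sulfur protein, had 160, 117, 113 and 124 CPM in Romidepsin libraries and 113, 100, 106 and 72.2 CPM in untreated libraries. Its groups did not overlap, yet it missed the threshold (log2 fold change 0.39 ± 0.19, adjusted p = 0.127). Uqcrh, the hinge protein and the most abundant nuclear member of the complex per kb, stood at 165 CPM per kb in Romidepsin cells and 166 CPM per kb in untreated cells.

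Complex IV, cytochrome c oxidase, had 1 higher gene among 14 tested nuclear members and a median log2 fold change of 0.05. Cox4i1, its major regulatory subunit and the most abundant nuclear member of all per kb in untreated cells, had 538, 386, 444 and 447 CPM in Romidepsin libraries and 596, 561, 500.0 and 332 CPM in untreated libraries. These groups overlapped, and the log2 fold change was −0.13 ± 0.23 (adjusted p = 0.667). Cox5a averaged 209 ± 31.4 CPM in Romidepsin cells and 170.4 ± 41.1 CPM in untreated cells (log2 fold change 0.29 ± 0.21, not called). Ndufa4, which assembles with complex IV, was higher in all 4 pairs without a call (log2 fold change 0.41 ± 0.18, adjusted p = 0.104).

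The called gene was an isoform. Cox6b2, known as the testis-enriched form of the ubiquitous subunit Cox6b1, had 5.05, 6.80, 1.85 and 3.62 CPM in Romidepsin libraries, against 1.20, 1.49, 0.658 and 0.484 CPM in untreated libraries. Every Romidepsin library lay above every untreated one, with replicate 3 the lowest of the 4. The log2 fold change was 2.19 ± 0.51 (adjusted p = 0.0121), and it was called in 18 of 19 alternative fits; a minimum mean of 10 CPM removed it. As a percentage of Cox6b1 within the same library, a measure that scaling does not touch, Cox6b2 stood at 2.42, 4.46, 1.16 and 2.16% in Romidepsin libraries and 0.549, 0.670, 0.363 and 0.418% in untreated libraries. The mean was 2.55 ± 1.38% in Romidepsin cells and 0.4999 ± 0.138% in untreated cells, 5.10-fold. Per kb of exon, Cox6b2 stood at 3.91 CPM per kb in Romidepsin cells and 0.863 CPM per kb in untreated cells, far below Cox6b1 at 243 and 260.3 CPM per kb in the same groups. Cox6b1 itself averaged 172 ± 24.9 CPM in Romidepsin cells and 184 ± 49.3 CPM in untreated cells (log2 fold change −0.10 ± 0.23, not called).

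The 2 promoters of this isoform pair are shown because Cox6b2 was called and Cox6b1 was not. They are RefSeq windows (GRCm38.p6) on the minus strand of chromosome 7, chr7:4753045-4753344 for Cox6b2 and chr7:30626065-30626364 for Cox6b1, again with the ETS core in capitals.
Cox6b2: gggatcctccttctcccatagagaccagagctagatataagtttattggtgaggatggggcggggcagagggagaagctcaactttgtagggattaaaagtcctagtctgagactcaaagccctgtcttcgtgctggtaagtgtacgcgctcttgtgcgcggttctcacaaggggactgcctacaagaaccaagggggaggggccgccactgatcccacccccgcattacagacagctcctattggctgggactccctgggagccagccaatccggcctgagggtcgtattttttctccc
Cox6b1: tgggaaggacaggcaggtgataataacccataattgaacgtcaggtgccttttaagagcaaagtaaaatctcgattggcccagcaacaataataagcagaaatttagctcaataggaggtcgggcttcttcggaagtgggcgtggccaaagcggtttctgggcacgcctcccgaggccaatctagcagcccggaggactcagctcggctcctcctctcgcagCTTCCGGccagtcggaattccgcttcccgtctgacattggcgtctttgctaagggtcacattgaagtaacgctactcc
Cox6b1 had 1 ETS match shortly before the start, and no NRF1, ETS or YY1 letters were found in the Cox6b2 window.

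Other tissue-restricted forms of complex IV subunits stayed rare. Percentages here and for the c subunit are of CPM and also carry the lengths of the transcripts. Cox7a1, the muscle form, amounted to 2.58 ± 0.323% of Cox7a2 in Romidepsin cells and 1.75 ± 0.834% in untreated cells, with overlapping groups, and was not called (log2 fold change 0.70 ± 0.44). Cox6a2, another muscle form, was too low to test, at 0.114 ± 0.137% of Cox6a1 in Romidepsin cells and 0.595 ± 0.255% in untreated cells. Its percentages did not overlap, but 2 of the 4 Romidepsin libraries held no count of it and 70 counts were found in all 8 libraries together. Cox4i2, the lung and hypoxia form of Cox4i1, and Ndufa4l2 had 38 and 16 counts over all libraries and were not tested. Among the common forms, Cox8a had a log2 fold change of −0.30 ± 0.24 and Cox7b of 0.08 ± 0.22, and neither was called. Cox7b2 and Cox8b were not analysed here.

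Complex V, the ATP synthase, had 1 lower gene among 16 and a median log2 fold change of −0.13. Atp5b, the catalytic beta subunit and its most abundant member per kb over both groups, had 753, 810.4, 404 and 533 CPM in Romidepsin libraries and 505, 415, 471 and 558 CPM in untreated libraries. Romidepsin replicates 1 and 2 were the highest and replicate 3 the lowest, so the groups overlapped (log2 fold change 0.36 ± 0.26, adjusted p = 0.286). Atp5a1, the alpha subunit, averaged 150 ± 28.01 CPM in Romidepsin cells and 160.0 ± 27.2 CPM in untreated cells (log2 fold change −0.10 ± 0.20, not called). Atp5l, encoding a membrane subunit, had the highest value of the complex (0.57 ± 0.27) and Atp5e, the epsilon subunit, the lowest (−0.70 ± 0.31), neither with a call.

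Atp5g1, Atp5g2 and Atp5g3 all encode the c subunit of the proton-driven ring, and their mature proteins are the same. Atp5g2 had 12.8, 9.15, 12.6 and 10.2 CPM in Romidepsin libraries, against 22.3, 16.9, 17.2 and 16.1 CPM in untreated libraries, with no overlap. Its fold change was −0.70 ± 0.20 on the log2 scale (adjusted p = 0.0244). The call was lost without any 1 of Romidepsin replicates 2 and 4 or untreated replicates 1 and 3 (adjusted p up to 0.0700). Within the sum of the 3 genes, Atp5g2 contributed 5.21 ± 0.836% in Romidepsin cells and 7.53 ± 1.19% in untreated cells, also without overlap. Atp5g3 contributed 78.2 ± 1.87% in Romidepsin cells and 78.6 ± 1.03% in untreated cells. Of the 75-base windows of Atp5g2, 35.8% occur in other annotated genes, so part of its reads cannot be assigned to it alone. Neither Atp5g1 (log2 fold change 0.07 ± 0.23) nor Atp5g3 (−0.19 ± 0.21) was called.

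Atp5s, which encodes a coupling factor associated with the ATP synthase rather than a subunit counted here, had 10.8, 10.99, 6.75 and 6.99 CPM in Romidepsin libraries and 4.96, 6.03, 5.18 and 2.997 CPM in untreated libraries. The groups did not overlap, and the log2 fold change was 0.90 ± 0.31 (adjusted p = 0.0455). Among the fits that left out 1 library, only the one without Romidepsin replicate 3 kept the call (adjusted p up to 0.120).

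None of the mtDNA-encoded transcripts was called with TMM scaling, whereas housekeeping scaling called 6 of the 7 tested higher (median log2 fold change 1.07). Per kb of exon, 6 of the 7 tested exceeded every nuclear member, the lowest of these being mt-Nd4 at 769 CPM per kb in Romidepsin cells and 569.6 CPM per kb in untreated cells. The 7 tested genes had a median log2 fold change of 0.26, with 6 above 0, against −0.06 for the nuclear members. Without 1 library the mtDNA median ran from 0.05 (without untreated replicate 3) to 0.42 (without untreated replicate 1), and it was 0.12 without Romidepsin replicate 1. mt-Co1, the catalytic subunit of complex IV, had 11120.0, 7777, 6753 and 8294 CPM in Romidepsin libraries and 8456, 8334, 4504 and 7557 CPM in untreated libraries (log2 fold change 0.23 ± 0.30, adjusted p = 0.559). The number 3 library was the lowest of its group in both, and the groups overlapped. mt-Nd1, a membrane core subunit of complex I, had 2840.0, 2187, 1382 and 2342 CPM in Romidepsin libraries and 1868, 1910.0, 963 and 1626 CPM in untreated libraries. It was higher in all 4 pairs, but the groups overlapped and it was not called (log2 fold change 0.46 ± 0.31, adjusted p = 0.267; 0.0917 with the replicate block).

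mt-Cytb, the quinol-oxidising subunit of complex III, had 3834, 2747, 1680.0 and 2999 CPM in Romidepsin libraries and 3166, 2604, 1160.0 and 2483 CPM in untreated libraries (log2 fold change 0.26 ± 0.37, adjusted p = 0.594). The complex I genes mt-Nd2, mt-Nd4 and mt-Nd5 had log2 fold changes of 0.45 ± 0.32, 0.43 ± 0.35 and 0.25 ± 0.33, with adjusted p of 0.289, 0.345 and 0.567. Their means were 1040 ± 308, 1060 ± 367 and 2021 ± 515 CPM in Romidepsin cells and 762 ± 237, 785 ± 257 and 1703 ± 550.0 CPM in untreated cells. mt-Nd6, the member read from the other strand, was far rarer, at 48.1 CPM per kb in Romidepsin cells and 49.6 CPM per kb in untreated cells. Its libraries held 28.8, 11.9, 24.0 and 35.1 CPM in Romidepsin libraries and 32.9, 37.6, 16.3 and 16.2 CPM in untreated libraries (log2 fold change −0.04 ± 0.38, adjusted p = 0.938). It overlaps mt-Nd5 on the opposite strand. Groups overlapped for all 7 tested mtDNA genes. The mitochondrial ribosomal RNAs mt-Rnr1 and mt-Rnr2 were not called either (log2 fold changes 0.41 ± 0.31 and 0.37 ± 0.25).

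mt-Nd3 and mt-Co2 were nearly absent from the table, with 4 counts and 1 count over all 8 libraries, although both encode essential subunits. Their transcripts are almost wholly duplicated elsewhere in the annotated gene set: 97.8% of the 75-base windows of mt-Nd3 and 99.5% of those of mt-Co2 occur in another gene, 75 bases being the sequencing cycles the labels give. For the abundant members the share was 61.5% in mt-Nd4, 39.8% in mt-Co1, 5.71% in mt-Nd2, 1.66% in mt-Nd5 and 0% in mt-Nd1, mt-Cytb and mt-Nd6. mt-Co2 is the clearest case: bases 1 to 681 of its 684-base transcript are identical to the nuclear copy Gm28661 on chromosome 1. The first 75 bases are shown, positions 7013 to 7087 of the mitochondrial genome (GRCm38, plus strand), all of them shared.
mt-Co2: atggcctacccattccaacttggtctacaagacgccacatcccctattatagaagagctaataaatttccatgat
The nuclear copies did not hold the counts instead, with 6 for Gm28661, 53 for Gm28438 and 142 for Gm29216. How multiply mapping reads were treated is not given in the sources used here, so the levels of mt-Nd3, mt-Co2 and, in part, mt-Nd4 and mt-Co1 cannot be read as transcript abundance. mt-Co3, mt-Nd4l, mt-Atp6 and mt-Atp8 were not analysed here.

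**Figure D3:**
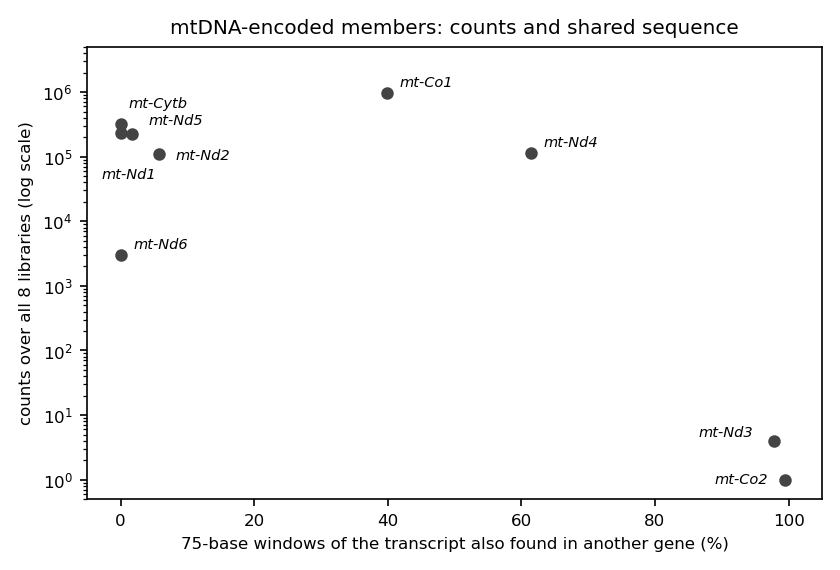
Counts summed over all 8 libraries (log axis) of the 9 mtDNA-encoded members against the percentage of 75-base windows of each transcript that occur in another annotated gene. mt-Nd3 and mt-Co2, at 97.8% and 99.5%, have 4 counts and 1 count.

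The mtDNA-encoded members took 2.76, 2.01, 1.22 and 1.94% of all counts in Romidepsin replicates 1 to 4 and 1.69, 1.53, 0.706 and 1.34% in untreated replicates 1 to 4. The mean was 1.98 ± 0.632% in Romidepsin cells and 1.32 ± 0.433% in untreated cells, so the difference of 0.665 percentage points was close to the spread within groups, and the groups overlapped. Within every same-number pair the Romidepsin library was higher, by 0.477 to 1.07 percentage points. The number 3 libraries were lowest in both groups. The nuclear members took 1.09, 0.860, 0.707 and 0.818% of counts in Romidepsin libraries and 0.861, 0.811, 0.662 and 0.509% in untreated libraries, also higher in 4 of 4 pairs with overlapping groups. No test was set for these shares. They follow library size alone, with which the median log2 fold change of all tested genes was 0.31. On that scale the nuclear members, at 0.23, lay below all genes, and the mtDNA-encoded members were at 0.56. The mtDNA values rest in effect on 7 genes, since mt-Nd3 and mt-Co2 were nearly without counts and 4 other mtDNA protein genes were not analysed here, so the shares and the ratios to nuclear members understate the mtDNA side.

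Counts of mtDNA-encoded over nuclear members gave ratios of 2.54, 2.34, 1.72 and 2.37 in Romidepsin libraries and 1.97, 1.89, 1.07 and 2.63 in untreated libraries. The ratio was higher in pairs 1, 2 and 3 and lower in pair 4, where untreated replicate 4 had the highest value of all. Its mean was 2.24 ± 0.357 in Romidepsin cells and 1.89 ± 0.641 in untreated cells, a difference within the spread. The makeup of the nuclear members by complex differed by less than the spread: complex I gave 28.4 ± 0.741% of their counts in Romidepsin cells and 29.2 ± 1.67% in untreated cells, and complex IV gave 23.6 ± 0.976% in Romidepsin cells and 23.3 ± 1.55% in untreated cells. Complex V gave 28.6 ± 1.72% in each.

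**Figure D4:**
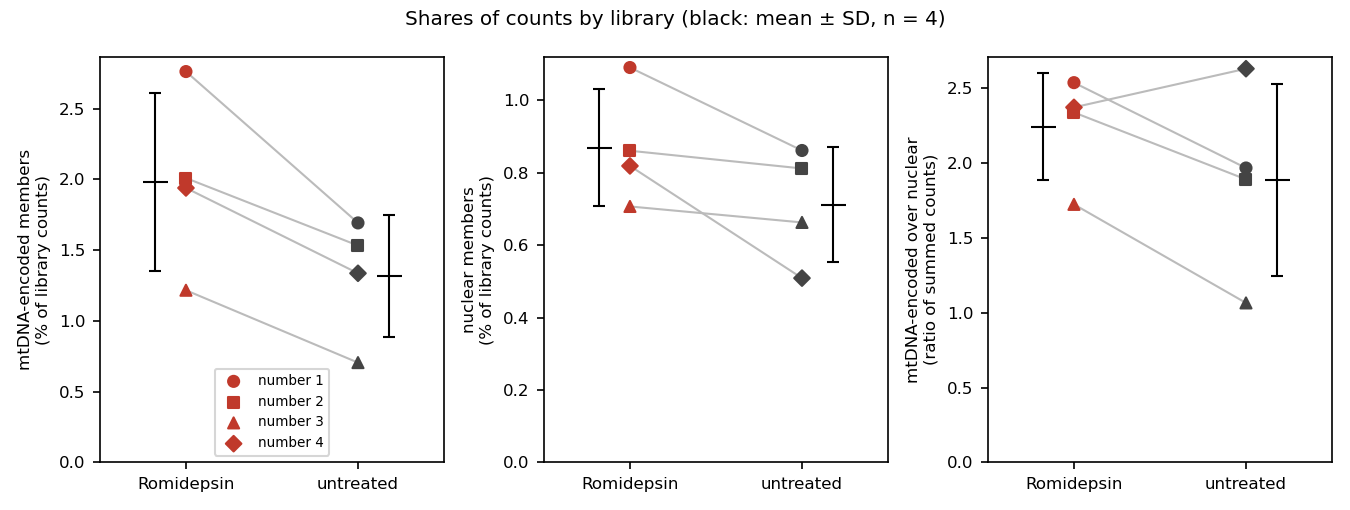
Share of each library's counts from the mtDNA-encoded members (left) and from the nuclear members (middle), and the ratio of the summed counts (right), with Romidepsin left of untreated and grey lines joining libraries of the same number (black, mean ± SD, n = 4). Both shares are higher in the Romidepsin library of all 4 pairs, the ratio in 3 of 4, and the groups overlap in every panel. The shares follow library size alone, with which the median log2 fold change of all tested genes was 0.31.

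The nuclear members were lowest in untreated replicate 4. On the log2 scale their median deviation from the untreated mean was −0.55 there and 0.05 to 0.30 in untreated replicates 1 to 3. Set against the other 3 untreated libraries, the nuclear members with under 1000 bases of exon had a median deviation of −0.84 in that library and those with 3000 bases or more of −0.65. Over all protein-coding genes the medians of these length classes were −0.76 and 0.16, so only the longer members differed in sign from genes of their length. The rank correlation of this deviation with exon length was 0.45 over the 79 tested nuclear members and 0.54 over 11741 protein-coding genes. In untreated replicates 1 to 3 the members' correlation was −0.32, −0.44 and −0.04. Each is a correlation across genes within 1 library, and genes are not independent replicates. The part of length in the calls was not tested; the values without this library are given above.

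Some sequence features that the symbol rule did not use were more frequent in promoters of the nuclear members than in those of all genes. RefSeq windows of 300 bases were found for 64 of the 82 nuclear members (69 windows). The NRF1 letters GCGC, then any base, then TGCGC, searched on both strands as were the others, occurred in 26.1% of them, against 4.6% of 32851 windows of all genes. The ETS core CCGGAAG occurred in 23.2% against 8.86%, and the YY1 letters AAGATGGCG in 10.1% against 1.40%. Any of the 3 was present in 50.7% of the members' windows and 13.6% of all windows. The windows of all genes were not matched to the members for expression or for their share of G and C bases. By call, 1 of 4 windows of the higher genes, 3 of 4 of the lower genes and 31 of 61 of the uncalled genes held at least 1 of them. A match describes the letters of the window and not binding.

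Genes that build, feed or regulate the complexes were described from lists of related genes. Of 50 tested assembly factors, which mount the subunits and their cofactors, 11 were higher and 3 lower, with a median log2 fold change of 0.08. The called share of 28% lay below the 36.5% of all tested genes, and the 22% called higher lay near the 20.3% of all genes. Counts below from the same fit stand against the same shares, with 16.2% of all genes lower. Counts with housekeeping scaling stand against 49.1% higher and 4.68% lower of all genes. Those without Romidepsin replicate 3 stand against 24.8% higher of all genes. Complex I assembly held 5 higher and 2 lower genes out of 16 (11 higher and none lower with housekeeping scaling). Ndufaf7, a methyltransferase of complex I assembly, averaged 47.5 ± 14.1 CPM in Romidepsin cells and 14.9 ± 4.06 CPM in untreated cells (log2 fold change 1.68 ± 0.28, adjusted p = 0.00315). Ndufaf2, which acts late in assembly, averaged 25.1 ± 9.02 CPM in Romidepsin cells and 8.40 ± 3.08 CPM in untreated cells (1.58 ± 0.36, adjusted p = 0.0106). Ndufaf4 averaged 23.7 ± 3.56 CPM in Romidepsin cells and 11.7 ± 1.64 CPM in untreated cells (1.01 ± 0.19, adjusted p = 0.00499). These 3 did not overlap between groups and kept their calls without any 1 library. Foxred1 (−0.53 ± 0.14) and Ndufaf1 (−0.71 ± 0.22) were lower, each losing its call in 4 of the 8 fits without 1 library, those without Romidepsin replicate 1 or 4 or untreated replicate 3 in both, without Romidepsin replicate 2 for Foxred1 and without untreated replicate 2 for Ndufaf1 (adjusted p up to 0.0631 for Foxred1 and 0.0912 for Ndufaf1).

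In complex III assembly, Ttc19 (1.51 ± 0.37) and Lyrm7 (2.39 ± 0.61) were higher, 2 of 6, and both are known for handling the Rieske protein. In complex IV assembly, 3 of 21 were higher, Cox19 (0.81 ± 0.18), Cmc2 (1.38 ± 0.40) and Cox18 (0.61 ± 0.18), and the copper chaperone Sco2 was lower (−1.44 ± 0.40). Ttc19, Lyrm7 and Cox19 kept their calls without any 1 library, whereas Cmc2, Cox18 and Sco2 lost theirs in 5, 5 and 4 of the 8 fits, untreated replicate 3 and Romidepsin replicate 2 being among those libraries each time (adjusted p up to 0.0697, 0.0930 and 0.0625). None of 4 complex II factors was called. Atpaf2 of complex V assembly was higher (0.46 ± 0.15, adjusted p = 0.0351) and lost its call with the replicate block (adjusted p = 0.0689) and in 7 of 8 fits without 1 library, all but the one without Romidepsin replicate 3 (adjusted p up to 0.107).

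Of 11 subunits and partners outside the symbol rule, the complex I acyl carrier protein Ndufab1 (0.62 ± 0.17, adjusted p = 0.0227) and cytochrome c1, Cyc1 (0.58 ± 0.20, adjusted p = 0.0457), were higher, and the ADP/ATP carrier Slc25a5 was lower (−0.63 ± 0.21, adjusted p = 0.0439). Ndufab1 lost its call without any 1 of Romidepsin replicates 1 and 4 or untreated replicate 3 (adjusted p up to 0.0702), while Cyc1 and Slc25a5 kept theirs only without Romidepsin replicate 3 (adjusted p up to 0.121 and 0.122 in the others). Cytochrome c, Cycs, averaged 26.6 ± 3.13 CPM in Romidepsin cells and 18.5 ± 4.64 CPM in untreated cells, without overlap, and missed the threshold (0.53 ± 0.22, adjusted p = 0.0858). The inner membrane carrier Ucp2 averaged 1194 ± 150 CPM in Romidepsin cells and 1780.0 ± 163 CPM in untreated cells, also without overlap and without a call (−0.58 ± 0.21, adjusted p = 0.0578; 0.0495 without untreated replicate 4).

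The machinery that copies and expresses mtDNA had 3 higher and no lower genes out of 13. These were Mterf2, of the mitochondrial transcription termination factor family (2.29 ± 0.40), the polymerase accessory subunit Polg2 (1.16 ± 0.24) and the mitochondrial RNA polymerase Polrmt (0.74 ± 0.20). Polrmt lost its call without any 1 of Romidepsin replicates 1 and 2 or untreated replicate 3 (adjusted p up to 0.0587). Tfam, which packages mtDNA and starts its transcription, averaged 36.6 ± 1.69 CPM in Romidepsin cells and 35.9 ± 2.61 CPM in untreated cells (0.03 ± 0.13, adjusted p = 0.883). Among 15 genes of mitochondrial RNA handling, Fastkd1 (0.96 ± 0.23) and the ribosomal protein gene Mrps12 (0.76 ± 0.24) were higher; Mrps12 kept its call only without Romidepsin replicate 3 among the fits that left out 1 library (adjusted p up to 0.101 in the others). Without Romidepsin replicate 3 the numbers of higher genes were 6 of the 13 and 5 of the 15.

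Among 12 regulators of the nuclear genes, 6 were lower (50%) and 1 was higher (8.33%), against 16.2% lower and 20.3% higher of all tested genes. Gabpb2, a partner subunit of GABP, had 22.2, 22.1, 26.5 and 18.6 CPM in Romidepsin libraries and 62.6, 52.5, 49.4 and 119 CPM in untreated libraries, with no overlap (−1.66 ± 0.29, adjusted p = 0.00391). Pprc1, a coactivator related to PGC-1 alpha, fell by 0.85 ± 0.20 on the log2 scale and Sp1 by 0.75 ± 0.17 (adjusted p = 0.0130 and 0.0103). Ppargc1a, which encodes PGC-1 alpha, was at 0.803, 1.46, 0.927 and 1.62 CPM in Romidepsin libraries and at 0, 0.248, 0 and 0 CPM in untreated libraries (adjusted p = 0.00764). Yy1, which encodes the DNA-binding factor YY1, was called lower (−0.52 ± 0.15, adjusted p = 0.0276), with no overlap. Myc was called lower as well. The DNA-binding factor Nrf1 missed the threshold at −0.42 ± 0.17 (adjusted p = 0.0781, and 0.0179 without Romidepsin replicate 3). Gabpa missed it at −0.43 ± 0.17 (adjusted p = 0.0748), as did the coactivator gene Ppargc1b (−0.38 ± 0.38, adjusted p = 0.454). With housekeeping scaling the 12 regulators gave 2 higher and 1 lower genes, and Sp1, Yy1, Nrf1 and Gabpa were above 0.

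The enzymes of the citric acid cycle, which supply the NADH and succinate, had 7 of 14 genes higher and 2 lower, with a median log2 fold change of 0.45 (11 higher and none lower with housekeeping scaling). Mdh2, malate dehydrogenase, had 358, 335, 197 and 274 CPM in Romidepsin libraries and 165, 152, 125 and 104.9 CPM in untreated libraries, with no overlap (1.09 ± 0.24, adjusted p = 0.00921). Idh3a, the catalytic subunit of isocitrate dehydrogenase, averaged 70.6 ± 31.1 CPM in Romidepsin cells and 27.7 ± 4.06 CPM in untreated cells (1.35 ± 0.32, adjusted p = 0.0124), with Romidepsin replicate 3 within the untreated range. Fumarase, Fh1, was higher by 0.91 ± 0.24 and lost its call without Romidepsin replicate 1 or untreated replicate 3 (adjusted p up to 0.0563). Suclg2 fell by 1.01 ± 0.18 and Idh3g by 0.42 ± 0.14 on the log2 scale. Idh3g lost its call with the replicate block (adjusted p = 0.0859) and without any 1 of Romidepsin replicates 1, 2 and 4 or untreated replicates 1, 2 and 3 (adjusted p up to 0.116).

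**Figure D5:**
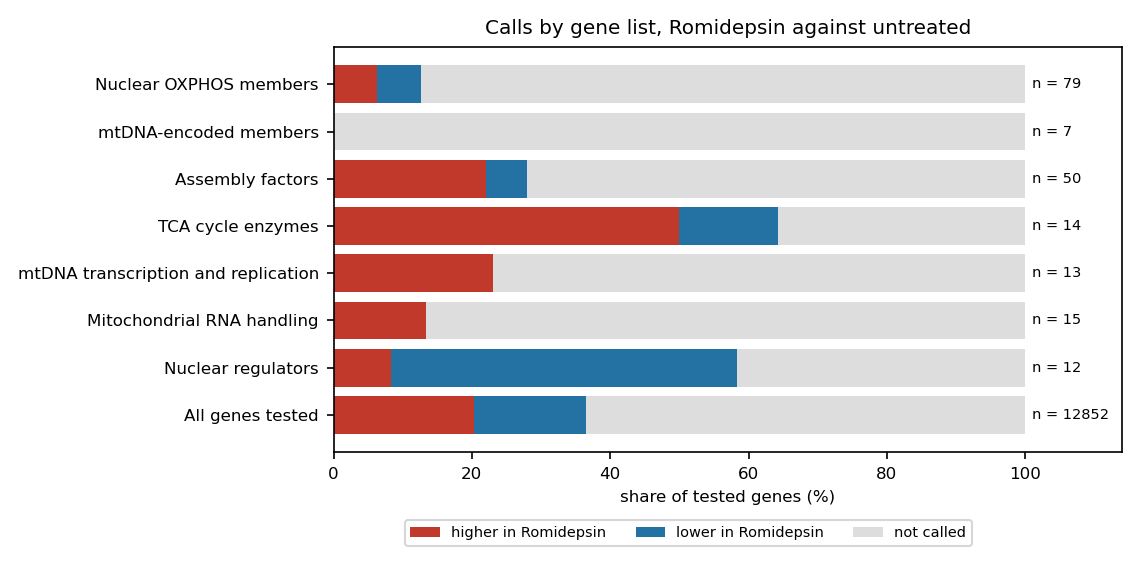
Share of tested genes called higher (red) or lower (blue) in Romidepsin against untreated cells, for the nuclear and mtDNA-encoded members, the related gene lists and all 12852 tested genes (n, genes tested). The nuclear members have 5 higher and 5 lower of 79 and the mtDNA-encoded members none of 7 with TMM scaling, while 7 of 14 citric acid cycle genes are higher and 6 of 12 regulators lower.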

How the data were processed

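Poly(A) RNA from 4 Romidepsin and 4 untreated libraries was selected with a NEBNext module and sequenced on a NextSeq 500, per the labels' protocols. The deposited values are raw read counts per Ensembl gene. FastQC, STAR 2.5.2a, DESeq2 and the GRCm38 (mm10) genome are named per the submitters' processing notes; how reads were counted, with which annotation, strand setting and treatment of multiple mapping, is not given in the sources used here. Without strand information, genes that overlap on opposite strands cannot be told apart, which touches 30 members, and 8 overlap a gene on their own strand.

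Groups came from the sample titles. Counts were fitted in R 4.3.3 with edgeR 4.0.16 (filterByExpr, TMM scaling, robust quasi-likelihood F test, two-sided, group as the only term), with Benjamini-Hochberg adjustment over 12852 genes. The SE was taken as the size of the log2 fold change divided by the square root of F. CPM, CPM per kb of exon, count shares and ratios were computed from the deposited counts. Symbols, exon lengths and overlaps came from GENCODE M21 on GRCm38, with 26881 of 26930 identifiers matched, and promoters from RefSeq. Windows of 75 bases of each member's transcripts were searched for in all annotated transcripts. The fits were tested on simulated data. The members and gene lists were chosen with earlier results of these data known.

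Libraries of the same number deviated together from their group means (r = 0.525, 0.18, 0.474 and 0.104 for numbers 1 to 4, the highest value between numbers being 0.0873), all above the bound of 0.1. The numbers were therefore read as pairs, from the data only, since the labels do not explain them. The fit reported has no block. Alternatives were the block, DESeq2 1.42.0 size factors and Wald test, limma-voom (limma 3.58.1), library size, upper-quartile and housekeeping scaling, TMM without the mtDNA genes, a mean of at least 10 CPM, no filter on counts, Ndufa4 placed by symbol, and leaving out each library or both of number 3.

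Named were all mtDNA-encoded members, up to 3 called genes per direction in each complex and each list of related genes, the most abundant nuclear member per complex by CPM per kb, 13 fixed subunits (another is not reported here), the isoform pairs, and Cycs, Cyc1, Tfam, Ppargc1a, Nrf1, Gabpa, Ucp2 and the mitochondrial rRNAs; others named, such as Ndufb7 and Atp5l, were chosen after their values were seen. Total counts of 12996892 to 23176949 leave genes near 1 CPM imprecise.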

Additional observations from a re-analysis of the deposited data

Results flagged for a closer look

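In 4 of 170 gene and group combinations examined, 1 library lay far from the other 3 of its group. Such a gap arises by chance in about 1 of 20 groups. Romidepsin replicate 1 had 270.0 CPM of the complex IV subunit gene Cox6a1, against 179 to 187 CPM in the other Romidepsin libraries. The same library had 126.7 CPM of Cox7a2, another complex IV subunit gene, against 85.3 to 89.4 CPM in the others. Neither gene was called. Untreated replicate 1 had 6.555 CPM of the complex III assembly factor Ttc19, against 4.44 to 4.71 CPM in the other untreated libraries, and the gene was called higher in Romidepsin cells with that library left out as well. Untreated replicate 2 had 0.2478 CPM of Ppargc1a, while the other 3 untreated libraries had no count of it.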

How the results depend on the processing

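Ndufs8 stayed lower and called in all 19 alternative fits, and Cox6b2 stayed higher and called in 18. In the 8 fits with all libraries other than housekeeping scaling and library size, 2 to 5 nuclear members were higher and 2 to 8 lower. Counts that moved by more than 1.5 times were, for the nuclear members called higher, 3 with DESeq2 size factors, 11 with library size alone, 54 with housekeeping scaling, 2 with a minimum mean of 10 CPM and 3 without both libraries of number 3. For those called lower they were 8 in the DESeq2 Wald test, 1 with library size or housekeeping scaling, 2 with upper-quartile scaling, and 3 with no count filter, with the replicate block and without both libraries of number 3. Housekeeping scaling called 6 mtDNA-encoded members higher, and over all genes 6316 higher and 602 lower; library size alone called 1368 lower. Medians under housekeeping scaling were 1.07 (mtDNA-encoded), 0.74 (nuclear), and 0.70, 0.89, 0.84, 0.85 and 0.67 for complexes I to V; with library size they moved to 0.22, 0.43 and 0.31 for complexes I, II and III. Leaving out 1 library at a time gave 1 to 5 nuclear members higher and 1 to 16 lower, and 1187 to 3077 genes lower in all. The cause was not tested; scaling shifts every gene of a library by the same factor. Beside Ndufb8, Uqcrc2, Atpaf2 and Idh3g, the replicate block changed no call among the named genes. Too few counts were found to test mt-Nd3, mt-Co2, Cox4i2, Cox6a2 and Ndufa4l2.

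Fold changes that crossed 0 include genes without a call. With housekeeping scaling these were Atp5a1 (0.69), Atp5g2 (0.075), Atp5g3 (0.61), Cox4i1 (0.67), Cox6b1 (0.72), Cox8a (0.51), Foxred1 (0.23), Gabpa (0.34), Idh3g (0.35), Ndufa2 (0.61), Ndufaf1 (0.10), Ndufb8 (0.20), Ndufs1 (0.69), Nrf1 (0.30), Ppargc1b (0.27), Sdhb (0.57), Slc25a5 (0.094), Sp1 (0.002), Ucp2 (0.18), Uqcrc1 (0.68), Uqcrc2 (0.37), Uqcrh (0.81) and mt-Nd6 (0.73). With library size alone they were Atp5a1 (0.22), Atp5g3 (0.11), Cox4i1 (0.16), Cox6b1 (0.20), Ndufa2 (0.09), Ndufs1 (0.24), Sdhb (0.11), Uqcrc1 (0.19), Uqcrh (0.28) and mt-Nd6 (0.23). With upper-quartile scaling they were Ndufs1 (0.007), Uqcrh (0.047) and mt-Nd6 (0.005), Uqcrh with limma-voom (0.018) and the replicate block (0.046), and Tfam with DESeq2 size factors (−0.005), the DESeq2 Wald test (−0.010) and no count filter (−0.001). Leaving out 1 library crossed 0 for Atp5g1 (−0.089 to 0.18), Cox7a2 (−0.056 to 0.20), Cox7b (−0.093 to 0.17), Ndufs1 (−0.154 to 0.017), Sdha (−0.052 to 0.15), Tfam (−0.031 to 0.052), Uqcrh (−0.22 to 0.11) and mt-Nd6 (−0.25 to 0.19).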
